A study of Homo sapiens with 18 samples.

Results

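The endoplasmic reticulum is the compartment in which secreted and membrane proteins fold, and this account concerns 10 genes that encode its stress-inducible folding machinery: HSPA5, HYOU1, DNAJB9, DNAJC3, HSP90B1, CALR, PDIA4, PDIA6, SDF2L1 and HERPUD1. The rule for these genes is a list of names and uses no measured value. The list itself was chosen with earlier results of these data known. All 10 were found among the 60656 gene rows of a table of read counts. All 10 also passed the low-count filter in every comparison. The libraries came from CAMA-1 and ZR-75-1, both lines of luminal breast cancer that express the oestrogen receptor, and each used as the wild-type parent. Both lines received abemaciclib or palbociclib, inhibitors of the cell cycle kinases CDK4 and CDK6, at 500 nM, or a matching volume of the solvent DMSO, for 5 days. With 3 libraries from independent cultures for each line and treatment, there were 6 groups and 18 libraries in all. The question asked of the series was how CDK4/6 inhibition changes transcription, and here it is asked of the folding machinery of the endoplasmic reticulum.

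When unfolded proteins accumulate in the endoplasmic reticulum, 3 membrane sensors start the unfolded protein response. IRE1 (gene ERN1) splices the messenger RNA of the transcription factor XBP1, ATF6 is cut to release its own transcription factor domain, and PERK (gene EIF2AK3) phosphorylates the initiation factor eIF2α, which lowers general translation and favours translation of ATF4. XBP1 and ATF6 are known above all for inducing chaperones and degradation factors, and ATF4 for amino acid synthesis, redox genes and DDIT3 (CHOP). The central chaperone is BiP, the product of HSPA5, an Hsp70-type ATPase that also holds the sensors inactive when it is free. Luminal breast epithelium is a secretory tissue, and XBP1 is one of the genes that mark it.

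The best known route to these genes runs through short promoter elements. Promoter sequences were read from RefSeq (GRCh38.p14, 250 bases before to 50 bases after each annotated start), in which all 10 genes had an entry. Both strands were searched for the endoplasmic reticulum stress element ERSE (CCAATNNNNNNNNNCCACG), for ERSE-II (ATTGGNCCACG), for the core of the unfolded protein response element (UPRE core, TGACGTGG) and for a C/EBP-ATF element (TTGCATCA). These 4 motifs were chosen from general knowledge of these promoters, after the sequences and results of these genes were known. Their presence in these genes is therefore not an independent finding, and no enrichment was tested. ERSE was present in 27 of 35116 promoters (0.0769%), among them 4 of the 10 genes, and ERSE-II was present in 19 promoters (0.0541%), among them 3. The UPRE core was found in 0.729% of promoters and the C/EBP-ATF element in 0.866%. The matched letters are alike because the search fixed all but those given as N, and the windows that hold them are printed below. Each is written 5′ to 3′ on the strand of the gene, with the matched letters in capitals:

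HSPA5, ERSE: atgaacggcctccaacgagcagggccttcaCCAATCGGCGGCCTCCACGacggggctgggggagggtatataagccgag
HYOU1, ERSE-II overlapped by the UPRE core: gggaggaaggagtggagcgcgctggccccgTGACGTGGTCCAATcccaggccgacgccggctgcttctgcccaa
HYOU1, ERSE-II nearer the start: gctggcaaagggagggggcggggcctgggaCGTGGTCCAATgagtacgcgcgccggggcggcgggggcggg
HSP90B1, ERSE: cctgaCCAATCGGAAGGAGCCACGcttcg
HSP90B1, ERSE nearer the start: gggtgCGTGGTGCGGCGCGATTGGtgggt
CALR, ERSE: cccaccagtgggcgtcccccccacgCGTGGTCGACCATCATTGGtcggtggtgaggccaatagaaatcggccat
PDIA6, ERSE: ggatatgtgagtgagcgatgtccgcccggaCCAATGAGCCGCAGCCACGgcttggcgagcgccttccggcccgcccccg
SDF2L1, ERSE-II: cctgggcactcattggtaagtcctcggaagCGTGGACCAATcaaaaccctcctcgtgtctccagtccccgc
HERPUD1, C/EBP-ATF element: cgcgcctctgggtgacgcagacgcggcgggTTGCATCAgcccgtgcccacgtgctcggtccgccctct
HERPUD1, ERSE-II: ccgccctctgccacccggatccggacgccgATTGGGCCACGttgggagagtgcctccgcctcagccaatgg

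In GRCh38 these windows lie, in the same order, at chr9:125241361-125241439 (-), chr11:119057350-119057423 (-), chr11:119057244-119057314 (-), chr12:103930211-103930239 (+), chr12:103930316-103930344 (+), chr19:12938359-12938432 (+), chr2:10812823-10812901 (-), chr22:21642084-21642154 (+), chr16:56931936-56932003 (+) and chr16:56931995-56932065 (+), with the strand of the gene in parentheses. The windows of HYOU1, CALR, SDF2L1 and HERPUD1 overlap no gene annotated in GENCODE 44. The last 22 bases of the HSPA5 window fall in the first exon of that gene. Both HSP90B1 windows lie within the 5′ untranslated exon of a longer annotated transcript of HSP90B1, and that of PDIA6 lies within the annotated span of PDIA6, at the second of its 2 RefSeq starts. In DNAJB9, DNAJC3 and PDIA4 none of these letters was found in the window. A match is a description of the sequence, and binding was not measured here.

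Library totals ran from 2308442 to 4146549 counts. Levels are given as CPM, counts divided by the library size after scaling with the trimmed mean of M values (TMM), so each is relative to the other transcripts of its library, and in bulk RNA a change in the cells present cannot be told apart from a change per cell. All 8 luminal markers listed were detected in every library, from at least 120 counts for ESR1 and 161 for CDH1 to at least 4661 for KRT19. Their summed level was 4711 to 5022 CPM in CAMA-1 under DMSO, 6360 to 6484 CPM under abemaciclib and 6681 to 6748 CPM under palbociclib, with 4 of the 8 called higher and 1 lower with each drug. In ZR-75-1 it was 6272 to 6520, 7347 to 7542 and 5767 to 5987 CPM, with 5 higher and 1 lower with abemaciclib and 1 higher and 3 lower with palbociclib. The part of this shift in the results was not tested. Of 12 markers of immune, stromal, endothelial, muscle and basal cells, CD3E, PDGFRB and KRT5 were at 0 in every library, and PTPRC, PECAM1, VWF and KRT14 never exceeded 3 counts. COL1A1 was present in every library, at 26 to 108 counts. ACTA2 had 2 to 34 counts, LYZ 1 to 38 and COL3A1 0 to 24. The summed level of the 12 markers in CAMA-1 was 17.5 to 29.8 CPM under DMSO, 25.4 to 34.3 CPM under abemaciclib and 22.9 to 27.9 CPM under palbociclib, and in ZR-75-1 it was 32.1 to 40.2, 27.2 to 42.6 and 36.6 to 46.5 CPM. Of the 3 that could be tested in each line, ACTA2 and COL3A1 were called higher with each drug and COL1A1 lower with abemaciclib in CAMA-1, and ACTA2 lower with abemaciclib and LYZ higher with palbociclib in ZR-75-1. Their part in the results was not tested. The share of counts from mitochondrially encoded genes was 14.8% to 16.6% in CAMA-1 cells under DMSO, 23.4% to 26.1% under abemaciclib and 22.9% to 24.9% under palbociclib, without overlap between DMSO and either drug. In ZR-75-1 it was 17.3% to 22.6%, 18.5% to 20.5% and 18.5% to 19.8%, and the groups overlapped. With the mitochondrial genes left out of the totals and the fit, every one of the 100 tested values of the 10 genes kept its direction and its side of the threshold.

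The answer differed between the lines. In ZR-75-1 each inhibitor raised 7 of the 10 genes and lowered none, by at most 1.69-fold, whereas in CAMA-1 each raised 3 and lowered 2. With abemaciclib in ZR-75-1, HSPA5, PDIA4, HSP90B1, CALR, HYOU1, PDIA6 and DNAJC3 rose. With palbociclib in that line, HSPA5, CALR, HYOU1, SDF2L1, PDIA4, HSP90B1 and PDIA6 rose. Among all 11017 genes tested in ZR-75-1, abemaciclib raised 17.9% and lowered 18.3%, and palbociclib raised 14.5% and lowered 13.4%. In CAMA-1, DNAJB9, DNAJC3 and CALR rose with abemaciclib while SDF2L1 and PDIA6 fell. With palbociclib, DNAJB9, HERPUD1 and DNAJC3 rose and SDF2L1 and PDIA6 fell. There the background over 11053 genes was 20.3% higher and 20.1% lower with abemaciclib, and 18.4% and 18.7% with palbociclib. For 10 genes, the CAMA-1 counts of 3 and 2 are near these shares. The comparisons with DMSO in 1 line share their DMSO libraries, so the 2 drugs are not independent repeats.

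The median log2 fold change over the 10 genes was 0.50 with abemaciclib and 0.51 with palbociclib in ZR-75-1, and 0.14 and 0.048 in CAMA-1. Over all genes tested, the corresponding medians lay between -0.0080 and 0.0100. The summed level of the 10 genes was 1638 ± 84.1 CPM (SD, n = 3) in ZR-75-1 cells under DMSO, 2352 ± 73.1 CPM under abemaciclib and 2394 CPM under palbociclib, where the libraries ran from 2311 to 2505 CPM. In CAMA-1 the sums were 2011 ± 18.0, 2202 ± 85.9 and 2103 ± 34.8 CPM. Thus the mean sum under DMSO was lower in ZR-75-1 than in CAMA-1, and the treated means were higher, which was not tested. With abemaciclib the lines overlapped, at 2132.5 to 2297.8 CPM in CAMA-1 and 2281.4 to 2427.2 CPM in ZR-75-1. Under that drug the means of HSP90B1, HYOU1, PDIA6 and SDF2L1 were higher in ZR-75-1. Those of HSPA5, CALR, PDIA4, DNAJB9, DNAJC3 and HERPUD1 were lower. The plot of levels by library shows the 10 genes side by side.

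**Figure D1:**
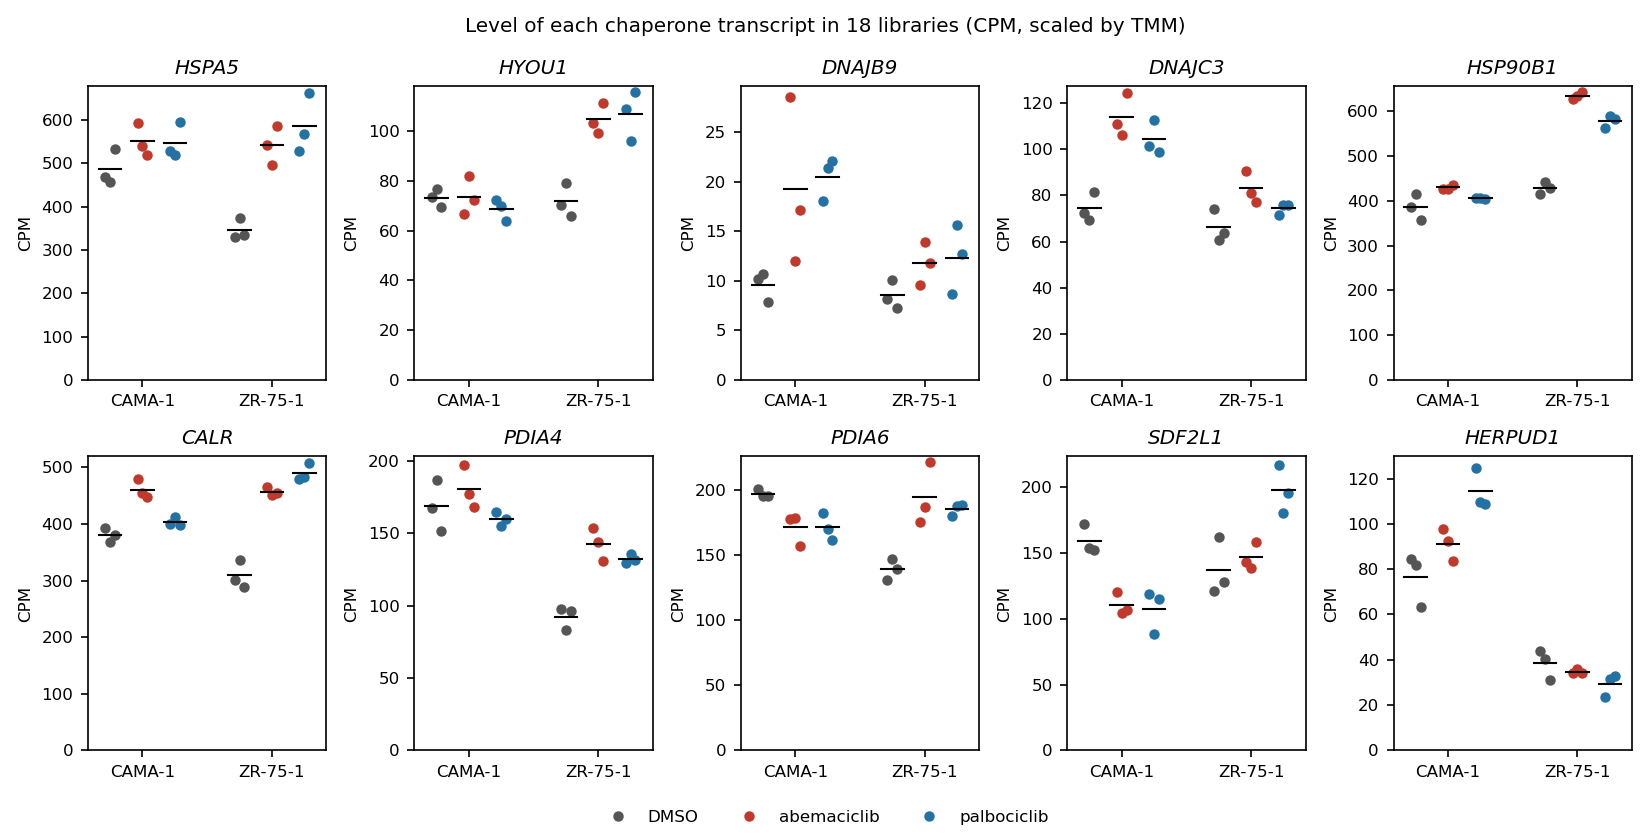
Level of each of the 10 chaperone genes in each library, in CPM on linear axes that start at 0, by cell line and treatment; points are libraries and bars are group means. In ZR-75-1 the treated libraries of HSPA5, HYOU1, HSP90B1, CALR, PDIA4 and PDIA6 all sit above the 3 DMSO libraries, whereas in CAMA-1 those of SDF2L1 and PDIA6 sit below them.

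HSPA5 (ENSG00000044574.8, chr9:125234853-125241382, minus strand) encodes BiP, which binds unfolded chains and feeds them back into folding. In ZR-75-1 its level was 330.4, 375 and 334 CPM in the 3 DMSO libraries, 542, 497 and 586 CPM with abemaciclib and 529, 569 and 662 CPM with palbociclib. No treated library overlapped the DMSO range. The rise was 1.55-fold with abemaciclib (log2 fold change 0.64 ± 0.077, ± SE here and in what follows, adjusted p = 9.27e-10) and 1.69-fold with palbociclib (0.75 ± 0.077, adjusted p = 9e-12). CAMA-1 libraries held 468, 456 and 534 CPM under DMSO, 593, 541 and 519 CPM under abemaciclib and 528, 518 and 597 CPM under palbociclib. Here the highest DMSO library lay inside the treated ranges, and neither difference passed the test (log2 fold change 0.15 ± 0.07, adjusted p = 0.0914, and 0.14 ± 0.07, adjusted p = 0.123). That library decided the call: without CAMA-1 DMSO replicate 3 the values were 0.22, adjusted p = 0.0083 for abemaciclib and 0.21, adjusted p = 0.013 for palbociclib.

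HYOU1 (ENSG00000149428.19, chr11:119044188-119057227, minus strand) encodes a large Hsp70-related protein that serves BiP as a nucleotide exchange factor. Under DMSO it stood at 70.4, 79.2 and 66.0 CPM in ZR-75-1 and at 73.5, 76.7 and 69.4 CPM in CAMA-1. With abemaciclib the ZR-75-1 libraries reached 103, 99.3 and 111 CPM, and with palbociclib 109, 96.0 and 115 CPM. Both sets lay above all DMSO libraries, and both rises passed the test (log2 fold change 0.53 ± 0.11, adjusted p = 4.81e-05, and 0.57 ± 0.10, adjusted p = 1.86e-05). In CAMA-1 the treated libraries held 66.4, 82.0 and 72.2 CPM with abemaciclib and 72.2, 70.0 and 63.9 CPM with palbociclib, which overlapped DMSO. The 95% interval of the log2 fold change in CAMA-1 was -0.25 to 0.19 with abemaciclib and -0.33 to 0.10 with palbociclib, so both upper bounds were below the lower bounds of 0.32 to 0.74 and 0.36 to 0.78 in ZR-75-1.

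DNAJB9 (ERdj4; ENSG00000128590.5, chr7:108569867-108574850, plus strand) and DNAJC3 (p58IPK; ENSG00000102580.15, chr13:95677139-95794988, plus strand) encode J-domain proteins, which stimulate the ATPase of BiP; DNAJB9 also directs BiP to IRE1. Both genes rose in CAMA-1 under either inhibitor. DNAJB9 was thinly counted, with 21 to 108 counts a library. Its level in CAMA-1 was 10.2, 10.7 and 7.81 CPM under DMSO, 28.6, 12.0 and 17.2 CPM under abemaciclib and 18.0, 21.3 and 22.1 CPM under palbociclib. All treated libraries were above DMSO, but those of abemaciclib spread widely. The rise was 2.06-fold with abemaciclib (log2 fold change 1.04 ± 0.25, adjusted p = 0.000669) and 2.11-fold with palbociclib (1.08 ± 0.24, adjusted p = 0.000418). Without CAMA-1 abemaciclib replicate 1, which held the highest level, the abemaciclib value was 0.62, adjusted p = 0.0669. In ZR-75-1 DNAJB9 was at 8.19, 10.1 and 7.26 CPM under DMSO, 9.62, 13.9 and 11.8 CPM under abemaciclib and 8.70, 15.6 and 12.7 CPM under palbociclib, with overlap. Neither difference passed (log2 fold change 0.45 ± 0.29, adjusted p = 0.233, and 0.51 ± 0.28, adjusted p = 0.18), and their 95% intervals of -0.13 to 1.03 and -0.055 to 1.07 extended well above 0.

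The level of DNAJC3 in CAMA-1 was 72.5, 69.3 and 81.3 CPM under DMSO, 111, 106 and 124 CPM under abemaciclib and 101, 113 and 99.0 CPM under palbociclib. Each treated library exceeded each DMSO library, and both rises passed (log2 fold change 0.58 ± 0.099, adjusted p = 5.88e-06, and 0.45 ± 0.098, adjusted p = 0.000273). ZR-75-1 libraries held 74.3, 60.7 and 63.9 CPM, 90.6, 81.3 and 77.4 CPM and 71.5, 76.0 and 75.7 CPM in the same order of treatments. Abemaciclib libraries lay just above the DMSO range there and palbociclib libraries overlapped it. The ZR-75-1 rise with abemaciclib passed the test (log2 fold change 0.32 ± 0.11, adjusted p = 0.0194), and the palbociclib value did not (0.16 ± 0.11, adjusted p = 0.301). The abemaciclib call was lost with DESeq2 (0.33, adjusted p = 0.0615), without ZR-75-1 abemaciclib replicate 1 (0.25, adjusted p = 0.13) and without ZR-75-1 DMSO replicate 2 (0.26, adjusted p = 0.111) or 3 (0.30, adjusted p = 0.0623).

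HSP90B1 (ENSG00000166598.15, chr12:103930107-103953931, plus strand) encodes GRP94, the Hsp90 of the endoplasmic reticulum, with a narrow set of clients such as integrins and Toll-like receptors. Replicates of this gene were tight. ZR-75-1 libraries held 416, 441 and 429 CPM under DMSO, 627, 633 and 642 CPM under abemaciclib and 563, 589 and 582 CPM under palbociclib. The 3 groups did not overlap, with abemaciclib highest. HSP90B1 rose 1.47-fold with abemaciclib (log2 fold change 0.56 ± 0.067, adjusted p = 6.73e-10) and 1.34-fold with palbociclib (0.43 ± 0.067, adjusted p = 8.49e-07). In CAMA-1 the values were 385, 415 and 356 CPM, 427, 427 and 436 CPM and 407, 406 and 403 CPM. Abemaciclib libraries lay above all DMSO libraries, yet the difference did not pass over all genes tested (log2 fold change 0.13 ± 0.068, adjusted p = 0.131), nor did that of palbociclib (0.044 ± 0.067, adjusted p = 0.654). Without CAMA-1 DMSO replicate 2 the abemaciclib value was called (0.19, adjusted p = 0.0432). On the opposite strand UQCC6 overlaps 13169 bases of HSP90B1 and had 909 counts over the 18 libraries against 27311 for HSP90B1, and its pseudogenes HSP90B2P and HSP90B3P had 40 and 162.

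CALR (ENSG00000179218.14, chr19:12938578-12944489, plus strand) encodes calreticulin, a calcium-binding lectin that holds newly made glycoproteins in the folding cycle. With abemaciclib it was called higher in both lines. Its level in ZR-75-1 was 302, 337 and 289.5 CPM under DMSO, 466, 452 and 454 CPM with abemaciclib and 480.3, 484 and 508 CPM with palbociclib. The groups were separate and palbociclib was highest. CALR rose 1.47-fold (log2 fold change 0.56 ± 0.071, adjusted p = 4.07e-09) and 1.58-fold (0.66 ± 0.071, adjusted p = 4.54e-11). In CAMA-1 it was 394, 368 and 380.3 CPM under DMSO, 479, 454 and 449 CPM with abemaciclib and 400.4, 412 and 398 CPM with palbociclib. The abemaciclib rise passed (log2 fold change 0.24 ± 0.065, adjusted p = 0.0023), and the palbociclib value did not (0.052 ± 0.065, adjusted p = 0.572). The 3 palbociclib libraries lay just above the DMSO range, the lowest at 397.6 CPM beside a highest DMSO value of 393.5 CPM. These CPM were scaled over 18 libraries, whereas the test scaled the 9 libraries of the line.

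PDIA4 (ERp72; ENSG00000155660.11, chr7:149003062-149028662, minus strand) and PDIA6 (P5; ENSG00000143870.13, chr2:10783391-10837977, minus strand) encode protein disulfide isomerases, which form and reshuffle disulfide bonds in folding chains. Both rose in ZR-75-1 with each drug. PDIA4 stood there at 97.6, 83.1 and 96.4 CPM under DMSO, 154, 144 and 131 CPM under abemaciclib and 129.6, 136 and 131 CPM under palbociclib. Every treated library was well above the DMSO range (log2 fold change 0.63 ± 0.095, adjusted p = 2.63e-07 with abemaciclib, and 0.51 ± 0.094, adjusted p = 2.01e-05 with palbociclib). In CAMA-1 PDIA4 was higher from the start, at 167, 187 and 152 CPM under DMSO. The drugs left it at 197, 177 and 168 CPM and 165, 155 and 160.2 CPM, which overlapped DMSO (log2 fold change 0.078 ± 0.086, adjusted p = 0.498, and -0.10 ± 0.085, adjusted p = 0.377).

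For PDIA6 the lines moved in opposite directions. ZR-75-1 libraries held 131, 147 and 139 CPM under DMSO, 176, 187 and 221 CPM under abemaciclib and 179.5, 188 and 188 CPM under palbociclib. All treated libraries were higher (log2 fold change 0.47 ± 0.087, adjusted p = 1.46e-05, and 0.41 ± 0.087, adjusted p = 0.000204). CAMA-1 libraries held 201, 195 and 195 CPM, 178, 179 and 157 CPM and 182, 169.6 and 162 CPM. There all treated libraries were lower, by a small amount (log2 fold change -0.24 ± 0.081, adjusted p = 0.0173, and -0.23 ± 0.08, adjusted p = 0.02). The CAMA-1 call of abemaciclib was lost without CAMA-1 abemaciclib replicate 3 (-0.17, adjusted p = 0.123) or DMSO replicate 1 (-0.23, adjusted p = 0.051). That of palbociclib was lost without DMSO replicate 1 (-0.22, adjusted p = 0.0567) or palbociclib replicates 2 (-0.22, adjusted p = 0.0573) or 3 (-0.19, adjusted p = 0.102), without the low-count filter (-0.22, adjusted p = 0.0517) and in 1 fit over all 18 libraries (-0.20, adjusted p = 0.0562).

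SDF2L1 (ENSG00000128228.5, chr22:21642302-21644299, plus strand) encodes a small luminal protein found in complexes with BiP and its J-domain partners. Its response differed between the lines. In CAMA-1 it fell from 172, 154 and 153 CPM under DMSO to 120.2, 104 and 107 CPM with abemaciclib and to 119, 88.2 and 115 CPM with palbociclib. No treated library reached the DMSO range, and both falls passed (log2 fold change -0.55 ± 0.097 and -0.60 ± 0.096, with adjusted p-values of 9.4e-06 and 2.12e-06). ZR-75-1 started from 121, 162 and 128 CPM. With abemaciclib it was at 143, 139 and 159 CPM, inside the DMSO range (log2 fold change 0.087 ± 0.096, adjusted p = 0.52). With palbociclib it rose to 217, 181 and 196 CPM, above all other libraries of either line (0.52 ± 0.092, adjusted p = 9.22e-06).

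HERPUD1 (ENSG00000051108.15, chr16:56932142-56944864, plus strand) encodes a membrane protein that organises the HRD1 ubiquitin ligase complex in endoplasmic reticulum-associated degradation, so it belongs to clearance rather than folding. It rose in CAMA-1 with palbociclib. Levels were 84.6, 81.7 and 63.4 CPM under DMSO, 97.7, 92.3 and 83.4 CPM with abemaciclib and 125, 109.8 and 109 CPM with palbociclib. The palbociclib libraries cleared both other groups (log2 fold change 0.56 ± 0.10, adjusted p = 2.67e-05), and the abemaciclib libraries overlapped DMSO (0.23 ± 0.11, adjusted p = 0.0842). Without CAMA-1 DMSO replicate 1 the abemaciclib value was called (0.31, adjusted p = 0.0424). In ZR-75-1 the gene stood at 43.9, 40.2 and 31.1 CPM under DMSO, 34.2, 35.8 and 34.3 CPM with abemaciclib and 23.6, 31.5 and 33.0 CPM with palbociclib. These groups overlapped DMSO, and neither value passed (log2 fold change -0.15 ± 0.16, adjusted p = 0.491, and -0.40 ± 0.16, adjusted p = 0.0532). The palbociclib value sat at the threshold: it was called lower in 1 fit over all 18 libraries (-0.40, adjusted p = 0.0372), with RLE scaling (-0.40, adjusted p = 0.0496), with upper-quartile scaling (-0.42, adjusted p = 0.0418), with a stricter count filter (-0.41, adjusted p = 0.0446) and without ZR-75-1 DMSO replicate 3 (-0.53, adjusted p = 0.015) or palbociclib replicate 3 (-0.50, adjusted p = 0.0342).

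**Figure D2:**
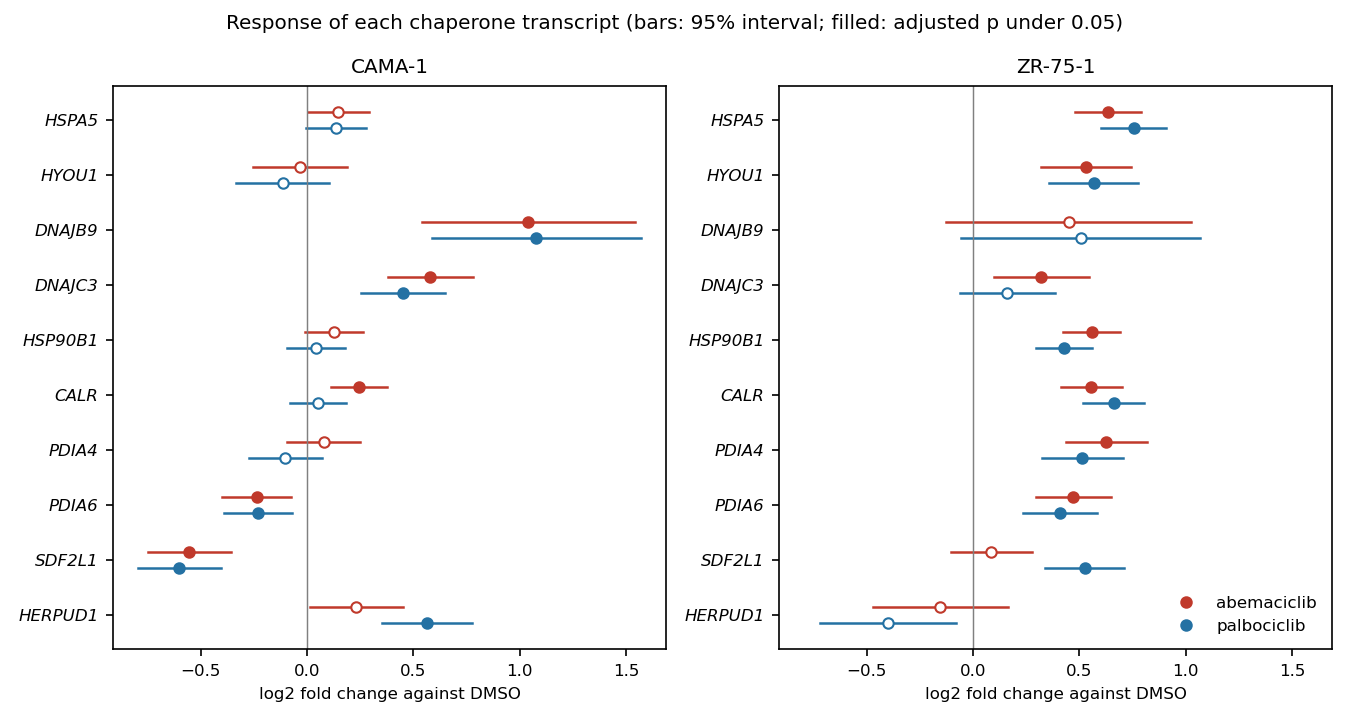
Log2 fold change of each gene against DMSO in CAMA-1 (left) and ZR-75-1 (right), for abemaciclib (red) and palbociclib (blue); lines are 95% intervals and filled points passed an adjusted p of 0.05. In ZR-75-1 the filled points run from 0.32 to 0.75, and in CAMA-1 they lie on both sides of 0, from -0.60 for SDF2L1 to 1.08 for DNAJB9.

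The promoter elements above can be read beside each comparison. Of the 7 genes with ERSE or ERSE-II, 5 rose in ZR-75-1 with abemaciclib (HSPA5, HYOU1, HSP90B1, CALR and PDIA6), and these and SDF2L1 rose with palbociclib. Of the 3 genes with no match in the window, PDIA4 and DNAJC3 rose there with abemaciclib and PDIA4 with palbociclib. In CAMA-1, DNAJB9 and DNAJC3, with no match, rose with each drug. Of the genes with an element, CALR rose with abemaciclib and HERPUD1 with palbociclib, while PDIA6 and SDF2L1 fell with each. These are counts over few genes and no test was made.

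The 2 inhibitors were compared directly at the same dose and time. In ZR-75-1, SDF2L1 differed, with a lower level under abemaciclib than under palbociclib (log2 difference -0.44 ± 0.092, adjusted p = 0.000432), and the 3 libraries of one drug did not overlap those of the other. None of the other 9 genes passed in ZR-75-1, where 5.23% of all genes passed as higher under abemaciclib and 7.94% as lower. The libraries of the 2 drugs also did not overlap for HSP90B1, DNAJC3, HERPUD1 and CALR. The share of all genes without overlap was not counted. For HSP90B1, the closest to passing, the log2 difference was 0.13 ± 0.066, adjusted p = 0.212, with an interval of -0.0022 to 0.26. The intervals of HSPA5 (-0.27 to 0.031), HYOU1 (-0.24 to 0.16), CALR (-0.24 to 0.034), PDIA4 (-0.070 to 0.30) and PDIA6 (-0.11 to 0.23) all included 0, and none extended beyond 0.30 in either direction. Those of DNAJC3 (-0.060 to 0.38), HERPUD1 (-0.081 to 0.57) and DNAJB9 (-0.60 to 0.49) were wider.

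In CAMA-1, none of the 10 genes passed between the drugs, against a background of 0.796% higher and 1.53% lower with abemaciclib. At an unadjusted p under 0.05 there were 3 genes in this edgeR test, and DESeq2 also called 0. The background above is at the adjusted threshold. The share of all genes under the unadjusted one was not counted, so the 3 cannot be compared with it. HERPUD1 was lower with abemaciclib (log2 difference -0.33 ± 0.10, adjusted p = 0.0847), with no overlap between the drugs' libraries. CALR was at 0.19 ± 0.065, adjusted p = 0.127, and PDIA4 at 0.18 ± 0.086, adjusted p = 0.36, both with every abemaciclib library above every palbociclib library. The remaining intervals all included 0, the narrowest being -0.052 to 0.22 for HSP90B1 and the widest -0.48 to 0.41 for DNAJB9. HSP90B1 libraries also did not overlap between the drugs, and the share of all genes without overlap was not counted.

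The difference between the lines was tested by subtracting the response of CAMA-1 from that of ZR-75-1, over 11987 genes in all 18 libraries. With abemaciclib, this difference was called higher for 7 of the 10 genes and lower for none, against a background of 8.19% and 10.0%. A higher difference need not be a stronger rise. SDF2L1 fell in CAMA-1 (log2 fold change -0.55) and did not pass in ZR-75-1 (0.087, adjusted p = 0.52). With palbociclib, 7 were higher and 1 lower, against 10.0% and 10.3%. The median difference over the 10 genes was 0.43 with abemaciclib and 0.59 with palbociclib, beside medians of -0.033 and -0.015 over all genes tested.

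PDIA6 had the largest difference with abemaciclib, 0.68 ± 0.12, adjusted p = 1.38e-05, the gene that rose in one line and fell in the other. SDF2L1 followed with 0.62 ± 0.14, adjusted p = 0.000909, and then HYOU1 with 0.54 ± 0.15, adjusted p = 0.00714. PDIA4 was at 0.52 ± 0.13, adjusted p = 0.00187, HSPA5 at 0.46 ± 0.11, adjusted p = 0.00114 and HSP90B1 at 0.41 ± 0.093, adjusted p = 0.000891. CALR, which rose in both lines, had the smallest difference that passed, 0.29 ± 0.096, adjusted p = 0.0273. Its call was lost without the low-count filter (0.29, adjusted p = 0.0681) and without ZR-75-1 DMSO replicate 1 (0.27, adjusted p = 0.067) or 3 (0.24, adjusted p = 0.102). The J-domain genes pointed the other way without passing, at -0.61 ± 0.39, adjusted p = 0.301 for DNAJB9 and -0.28 ± 0.15, adjusted p = 0.198 for DNAJC3. HERPUD1, at -0.41 ± 0.19, adjusted p = 0.124, was called lower without ZR-75-1 DMSO replicate 3 (-0.54, adjusted p = 0.0447).

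With palbociclib SDF2L1 stood out, at 1.10 ± 0.14, adjusted p = 6.19e-09, a response 2.14-fold higher in ZR-75-1. HYOU1 followed at 0.65 ± 0.15, adjusted p = 0.000695, and PDIA6 at 0.61 ± 0.12, adjusted p = 7.25e-05. HSPA5, PDIA4 and CALR were close to each other, at 0.59 ± 0.11, adjusted p = 2.69e-05, 0.59 ± 0.13, adjusted p = 0.000372 and 0.58 ± 0.096, adjusted p = 3.22e-06. HSP90B1 had the smallest of the 7, 0.36 ± 0.093, adjusted p = 0.00331. HERPUD1 went the other way, at -0.99 ± 0.18, adjusted p = 3.42e-05, its mean level under palbociclib being above that under DMSO in CAMA-1 and below it in ZR-75-1. DNAJB9 and DNAJC3 did not pass (-0.60 ± 0.38, adjusted p = 0.291, and -0.32 ± 0.15, adjusted p = 0.131). These contrasts share their DMSO libraries with those of abemaciclib and with the comparison of the untreated lines.

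**Figure D3:**
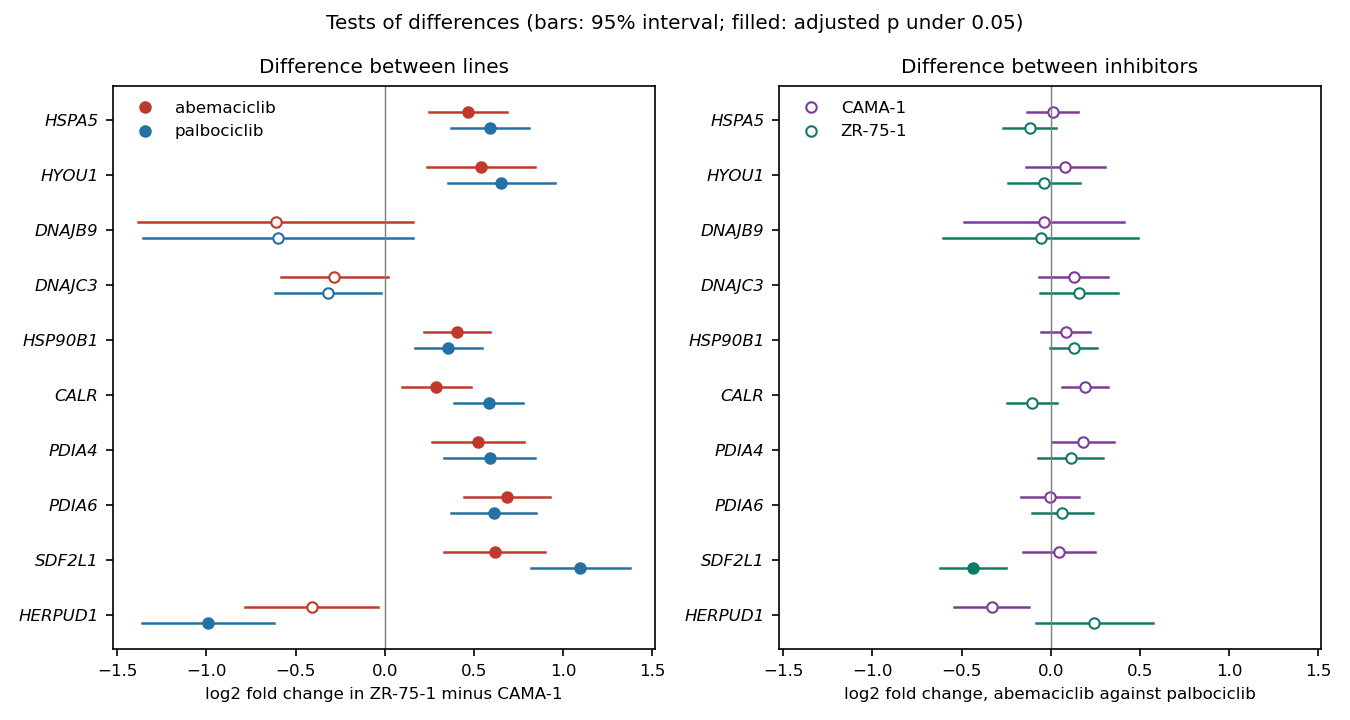
Left, log2 fold change against DMSO in ZR-75-1 less the CAMA-1 value, for abemaciclib (red) and palbociclib (blue). Right, log2 fold change between abemaciclib and palbociclib in CAMA-1 (purple) and ZR-75-1 (green); lines are 95% intervals and filled points passed an adjusted p of 0.05. The line differences of 7 genes lie above 0 with each drug, and in the right panel the filled point is SDF2L1 in ZR-75-1, at -0.44.

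Whether the drugs differed by line was tested as the same contrast between inhibitors, ZR-75-1 minus CAMA-1. SDF2L1 passed narrowly, at -0.48 ± 0.14, adjusted p = 0.0463, and no other gene passed, with 1.03% of all genes called higher and 1.77% lower. The SDF2L1 call was lost with DESeq2 (-0.47, adjusted p = 0.0568), RLE scaling (-0.47, adjusted p = 0.0542), upper-quartile scaling (-0.45, adjusted p = 0.0713) and the stricter filter (-0.46, adjusted p = 0.0603), and without CAMA-1 abemaciclib replicate 1 (-0.41, adjusted p = 0.183), replicate 2 (-0.49, adjusted p = 0.0776), replicate 3 (-0.49, adjusted p = 0.0741), CAMA-1 palbociclib replicate 2 (-0.34, adjusted p = 0.29), replicate 3 (-0.51, adjusted p = 0.0531), ZR-75-1 abemaciclib replicate 1 (-0.44, adjusted p = 0.139), replicate 2 (-0.44, adjusted p = 0.122), ZR-75-1 palbociclib replicate 1 (-0.41, adjusted p = 0.143) or replicate 3 (-0.47, adjusted p = 0.0867). CALR (-0.29 ± 0.095, adjusted p = 0.0828) and HERPUD1 (0.58 ± 0.19, adjusted p = 0.0828) came next. DESeq2 called CALR (-0.28, adjusted p = 0.0152), and HERPUD1 was called without ZR-75-1 palbociclib replicate 3 (0.70, adjusted p = 0.0479).

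Under DMSO alone the lines already differed. Of the 10 genes, 5 were lower in ZR-75-1 than in CAMA-1 and 1 was higher, and over all genes 29.8% were lower and 31.5% higher. HERPUD1 differed most, at a log2 difference of -0.98 ± 0.13, adjusted p = 1.34e-09, followed by PDIA4 (-0.86 ± 0.092, adjusted p = 1.98e-12). PDIA6 and HSPA5 were lower by similar amounts (-0.50 ± 0.085, adjusted p = 7.57e-07, and -0.49 ± 0.078, adjusted p = 1.72e-07), and CALR by less (-0.30 ± 0.069, adjusted p = 0.000149). In all 5 the DMSO libraries of the lines did not overlap, but the share of all genes without overlap was not counted. HSP90B1 was slightly higher in ZR-75-1 (0.16 ± 0.066, adjusted p = 0.0382), a call lost without the low-count filter (0.15, adjusted p = 0.111), with the stricter one (0.14, adjusted p = 0.0657), and without CAMA-1 DMSO replicate 1 (0.10, adjusted p = 0.252), replicate 2 (0.16, adjusted p = 0.0649), replicate 3 (0.063, adjusted p = 0.467), ZR-75-1 DMSO replicate 2 (0.081, adjusted p = 0.36) or replicate 3 (0.15, adjusted p = 0.0772). SDF2L1 was just outside the threshold (-0.21 ± 0.098, adjusted p = 0.0544) and was called lower with the stricter filter (-0.23, adjusted p = 0.0373) and without CAMA-1 DMSO replicate 2 (-0.29, adjusted p = 0.0182) or 3 (-0.28, adjusted p = 0.0188) or ZR-75-1 DMSO replicate 2 (-0.41, adjusted p = 0.000835). DNAJC3 (-0.17 ± 0.11, adjusted p = 0.161) was called lower without CAMA-1 DMSO replicate 2 (-0.27, adjusted p = 0.0426), and HYOU1 and DNAJB9 did not pass (-0.020 ± 0.11, adjusted p = 0.883, and -0.14 ± 0.29, adjusted p = 0.689).

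The order of the 6 groups for each gene follows from these levels. HSPA5 was lowest in ZR-75-1 under DMSO, at 346 ± 24.7 CPM (mean ± SD, n = 3), with no overlap with the next group, and its other 5 groups formed a chain of overlapping neighbours up to 587 ± 68.5 CPM in ZR-75-1 under palbociclib. PDIA4 and CALR were likewise lowest in untreated ZR-75-1, at 92.4 ± 8.02 and 309 ± 24.4 CPM, apart from every other group, and so was PDIA6 at 139 ± 8.30 CPM. HYOU1 split into the 2 treated ZR-75-1 groups, at 107 ± 9.91 and 105 ± 6.10 CPM, and 4 overlapping groups from 68.7 ± 4.27 to 73.5 ± 7.85 CPM. HSP90B1 was highest in ZR-75-1 under abemaciclib (634 ± 7.35 CPM) and then palbociclib (578 ± 13.4 CPM). HERPUD1 separated by line, with CAMA-1 groups from 76.6 ± 11.5 to 114 ± 8.86 CPM and ZR-75-1 groups from 29.4 ± 5.07 to 38.4 ± 6.58 CPM. SDF2L1 ran from 107 ± 16.7 CPM in CAMA-1 under palbociclib to 198 ± 18.3 CPM in ZR-75-1 under the same drug. For DNAJC3 both treated CAMA-1 groups were above the other 4, and for DNAJB9 every neighbour in the order overlapped.

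How far the genes moved together also differed between the lines as a description. Over the 9 libraries of ZR-75-1, the 45 pairs of the 10 genes had a median Pearson correlation of 0.684 (-0.676 to 0.973), and 31 pairs were above 0.5. Over the 9 libraries of CAMA-1 the median was 0.123 (-0.887 to 0.802), with 12 pairs above 0.5 and 18 below 0. The libraries of each line share their treatment groups, so these values hold the drug response itself. With each library taken as its deviation from the mean of its line, the genes most like HSPA5 over the 18 libraries, among 9316 genes, were GABARAPL2 (r = 0.94), SSR3 (0.94), SLC39A11 (0.93), BCAS4 (0.92) and AP1B1 (0.92). SSR3 encodes a subunit of the translocon-associated protein complex, GABARAPL2 an autophagy protein of the Atg8 family, and AP1B1 a subunit of a clathrin adaptor at the Golgi. CALR followed at rank 6 (0.92), HSP90B1 stood at rank 139 (0.82) and HYOU1 at rank 232 (0.79). HERPUD1 was the least like it of the 10, at -0.19.

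The wider pathway was followed through lists of named genes. Over all genes tested in CAMA-1, abemaciclib raised 20.3% and lowered 20.1%, and palbociclib raised 18.4% and lowered 18.7%. For ZR-75-1 these shares were 17.9% and 18.3%, and 14.5% and 13.4%. In ZR-75-1, most listed genes of protein entry and retrieval rose. Of 27 genes of translocation and retrieval, abemaciclib raised 17 and lowered 1, and palbociclib raised 16 and lowered 1, with median log2 fold changes of 0.36 and 0.32. In CAMA-1 the counts were 6 and 3, and 5 and 1, with medians of 0.070 and 0.015. The counts that rose in CAMA-1 were near the shares of all genes. Without CAMA-1 DMSO replicate 3 the number that rose was 3 with each drug, as it was with palbociclib without CAMA-1 palbociclib replicate 1. SEC62, a partner of the Sec61 channel, rose in both lines with both drugs (log2 fold change 0.62 ± 0.064, 0.61 ± 0.064, 0.64 ± 0.066 and 0.44 ± 0.066, each ± SE, for abemaciclib and palbociclib in CAMA-1 and then in ZR-75-1; largest adjusted p = 4.17e-07). SSR2, of the translocon-associated complex, rose alike (0.41 ± 0.076, 0.36 ± 0.075, 0.41 ± 0.077 and 0.39 ± 0.076; largest adjusted p = 0.000181). SSR1 of the same complex was called in all 4 (0.20 ± 0.072, 0.25 ± 0.071, 0.70 ± 0.076 and 0.47 ± 0.076; largest adjusted p = 0.0253), as was SERP1, which stabilises membrane proteins during translocation (0.23 ± 0.083, 0.24 ± 0.082, 0.59 ± 0.077 and 0.37 ± 0.077; largest adjusted p = 0.0245). The CAMA-1 call of SSR1 with abemaciclib was lost without CAMA-1 abemaciclib replicate 1 (0.19, adjusted p = 0.0625), replicate 3 (0.20, adjusted p = 0.0569) or CAMA-1 DMSO replicate 3 (0.16, adjusted p = 0.103). That of SERP1 was lost with abemaciclib without CAMA-1 abemaciclib replicate 2 (0.23, adjusted p = 0.0529), replicate 3 (0.22, adjusted p = 0.0697) or CAMA-1 DMSO replicate 3 (0.18, adjusted p = 0.103) and with DESeq2 (0.23, adjusted p = 0.0578), and with palbociclib without CAMA-1 DMSO replicate 3 (0.19, adjusted p = 0.0781) or CAMA-1 palbociclib replicate 1 (0.18, adjusted p = 0.15).

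Other folding factors of the compartment numbered 25 tested of 30 listed. In ZR-75-1, 14 rose and 1 fell with abemaciclib and 10 rose and 1 fell with palbociclib (medians 0.38 and 0.24). In CAMA-1, 9 rose and 4 fell, and 7 rose and 5 fell (medians 0.024 and -0.077). The counts that fell in CAMA-1 were near the shares of all genes, 20.1% with abemaciclib and 18.7% with palbociclib. P4HB, the archetypal protein disulfide isomerase, rose in all 4 comparisons, by 0.30 ± 0.066 and 0.20 ± 0.066 in CAMA-1 cells and by 0.59 ± 0.068 and 0.57 ± 0.068 in ZR-75-1 (largest adjusted p = 0.0127). SDF2, the paralogue of SDF2L1, rose by 0.45 ± 0.13 and 0.40 ± 0.13 in CAMA-1, where SDF2L1 fell, and by 1.04 ± 0.13 and 0.78 ± 0.13 in ZR-75-1 (largest adjusted p = 0.0101). MANF, a secreted stress-induced partner of BiP, rose by 0.46 ± 0.12, 0.51 ± 0.12, 0.41 ± 0.13 and 0.90 ± 0.12 (largest adjusted p = 0.0076). DNAJC1, a membrane J-domain protein, fell in all 4, by -0.77, -0.92, -0.51 and -0.76 (largest adjusted p = 2.52e-07). The palbociclib call of P4HB in CAMA-1 was lost without CAMA-1 DMSO replicate 1 (0.18, adjusted p = 0.0726) or CAMA-1 palbociclib replicate 1 (0.19, adjusted p = 0.0533), and that of SDF2 without CAMA-1 DMSO replicate 2 (0.30, adjusted p = 0.0816) or CAMA-1 palbociclib replicate 2 (0.35, adjusted p = 0.0516). In ZR-75-1 the abemaciclib call of MANF was lost without ZR-75-1 abemaciclib replicate 1 (0.34, adjusted p = 0.063) or replicate 3 (0.28, adjusted p = 0.124).

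Of 21 genes of endoplasmic reticulum-associated degradation, 9 rose and 0 fell with abemaciclib in ZR-75-1 and 8 rose and 0 fell with palbociclib, against 5 and 2, and 4 and 2, in CAMA-1 (median log2 fold changes 0.27 and 0.25, against 0.13 and 0.084). The counts that rose in CAMA-1 were again near the shares of all genes. The count of 8 was 5 with DESeq2 and without ZR-75-1 DMSO replicate 3, and the 2 that fell with abemaciclib in CAMA-1 were 1 with DESeq2 and without CAMA-1 abemaciclib replicates 1 or 2. OS9, a lectin that delivers glycoproteins to the HRD1 complex, rose in ZR-75-1 by 0.68 ± 0.076, adjusted p = 9.65e-11 and 0.59 ± 0.076, adjusted p = 8.98e-09, and in CAMA-1 by 0.31 ± 0.084, adjusted p = 0.00241 with abemaciclib (0.16 ± 0.083, adjusted p = 0.123 with palbociclib, not called). SEL1L, the scaffold of that complex, rose in CAMA-1 under either drug (0.74 ± 0.11, adjusted p = 3.43e-07, and 0.66 ± 0.11, adjusted p = 3.09e-06) and in ZR-75-1 under abemaciclib (0.65 ± 0.11, adjusted p = 1.51e-06, with 0.17 under palbociclib, not called). AUP1, which recruits ubiquitin-conjugating enzymes, fell in CAMA-1 (-0.69 ± 0.094, adjusted p = 7.53e-08, and -0.71 ± 0.092, adjusted p = 3.11e-08) and was at -0.067 ± 0.11 and 0.24 ± 0.10 in ZR-75-1, a difference between lines of 0.60 ± 0.14, adjusted p = 0.0014 and 0.93 ± 0.14, adjusted p = 4.17e-07. Without ZR-75-1 DMSO replicate 2, AUP1 was called higher with palbociclib in that line (0.35, adjusted p = 0.0172).

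Another list held the sensors and transcription factors of the response. Of its 10 genes in CAMA-1, abemaciclib raised 5 and lowered none (median log2 fold change 0.33), and palbociclib raised 3 and lowered 1 (0.28). In ZR-75-1 they raised 3 and 2 and lowered none (0.23 and 0.12). Apart from the 5, these counts are near the shares of all genes that rose, which in CAMA-1 cells were 20.3% and 18.4%, with 17.9% and 14.5% for ZR-75-1. The count of 5 was 3 without CAMA-1 abemaciclib replicate 1 or DMSO replicate 3, and the count of 2 was 1 with DESeq2 and without ZR-75-1 DMSO replicate 1 or palbociclib replicates 1 or 2. XBP1 in CAMA-1 was at 649, 655 and 696 CPM under DMSO, 938, 925 and 844 CPM under abemaciclib and 1128, 1063 and 1114 CPM under palbociclib, without overlap (log2 fold change 0.40 ± 0.061, adjusted p = 5.91e-07, and 0.69 ± 0.061, adjusted p = 1.23e-12). Its level in ZR-75-1 was already 1847, 1687 and 1762 CPM under DMSO, and the treated values did not pass (0.11 ± 0.063, adjusted p = 0.164, and 0.13 ± 0.063, adjusted p = 0.128). Less the CAMA-1 response, that of ZR-75-1 was -0.31 ± 0.086, adjusted p = 0.0054 with abemaciclib and -0.59 ± 0.085, adjusted p = 1.73e-07 with palbociclib, on the opposite side of 0 to HSPA5 and CALR. The abemaciclib difference of XBP1 was lost without CAMA-1 abemaciclib replicate 2 (-0.24, adjusted p = 0.073), CAMA-1 DMSO replicate 1 (-0.24, adjusted p = 0.0665), replicate 2 (-0.25, adjusted p = 0.0548) or ZR-75-1 abemaciclib replicate 1 (-0.25, adjusted p = 0.057). Splicing of XBP1 cannot be read from counts per gene.

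CREB3L1, a relative of ATF6, rose in all 4 comparisons, by 1.01 ± 0.15 and 1.43 ± 0.15 in CAMA-1 cells and by 0.45 ± 0.082 and 0.44 ± 0.081 in ZR-75-1 (largest adjusted p = 2.21e-05). CREB3L2 rose in CAMA-1 (1.11 ± 0.17, adjusted p = 6.6e-07, and 0.89 ± 0.17, adjusted p = 3.62e-05) and CREB3 in ZR-75-1 (0.47 ± 0.16, adjusted p = 0.0146, and 0.46 ± 0.15, adjusted p = 0.0207). The calls of CREB3 were lost with DESeq2 (0.48, adjusted p = 0.0642, and 0.46, adjusted p = 0.0967), for abemaciclib without ZR-75-1 abemaciclib replicate 3 (0.42, adjusted p = 0.0605) or ZR-75-1 DMSO replicate 1 (0.40, adjusted p = 0.0815), and for palbociclib without ZR-75-1 DMSO replicate 1 (0.38, adjusted p = 0.117), ZR-75-1 palbociclib replicate 1 (0.38, adjusted p = 0.095) or replicate 2 (0.32, adjusted p = 0.18). ATF6 itself rose with abemaciclib in ZR-75-1 (0.35 ± 0.10, adjusted p = 0.00526) and was at 0.11 with palbociclib there and at 0.020 and 0.12 in CAMA-1. In CAMA-1, ERN1 passed as higher under abemaciclib (1.46 ± 0.50, adjusted p = 0.0175) from few counts, a call lost with DESeq2 (1.46, adjusted p = 0.0757) and without CAMA-1 abemaciclib replicate 1 (1.11, adjusted p = 0.156), CAMA-1 DMSO replicate 1 (1.44, adjusted p = 0.0525) or replicate 3 (1.44, adjusted p = 0.0551). EIF2AK3 did not pass in any of the 4 comparisons, with values from -0.0048 to 0.43.

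Most listed genes of the PERK branch and ATF4 targets moved the other way to the chaperones in ZR-75-1. The activity of PERK was not measured. Of 14 tested genes of this branch and of the targets of ATF4, 12 fell and none rose with each drug, with medians of -1.76 and -1.50. ATF4 was at 395, 300.4 and 314 CPM under DMSO, 116, 98.6 and 102 CPM under abemaciclib and 115, 134 and 116.9 CPM under palbociclib in that line. It fell there by -1.68 ± 0.093 and -1.47 ± 0.09 and in CAMA-1 by -0.72 ± 0.09 and -0.61 ± 0.088 on the log2 scale (largest adjusted p = 3.71e-07). The fall was larger in ZR-75-1 (-0.98 ± 0.14, adjusted p = 1.03e-07, and -0.89 ± 0.13, adjusted p = 4.46e-07). In CAMA-1 the list was mixed, with 3 of 13 higher and 4 lower with abemaciclib and 3 higher and 5 lower with palbociclib (medians -0.061 and 0.048). The counts that rose there were near the shares of all genes, 20.3% with abemaciclib and 18.4% with palbociclib. The shares that fell were 20.1% and 18.7%.

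TRIB3, a pseudokinase induced by ATF4, fell in all 4 comparisons (-0.57 ± 0.12, -0.49 ± 0.12, -1.97 ± 0.15 and -1.95 ± 0.15; largest adjusted p = 0.000964). So did PHGDH, the first enzyme of serine synthesis (-2.54 ± 0.28, -1.86 ± 0.25, -1.92 ± 0.15 and -0.87 ± 0.13; largest adjusted p = 4.59e-07). ATF3, a stress-induced transcription factor, fell in ZR-75-1 (-1.73 ± 0.24, adjusted p = 3.77e-08, and -1.53 ± 0.23, adjusted p = 3.95e-07) and was called higher in CAMA-1 (1.05 ± 0.43, adjusted p = 0.0487, and 2.13 ± 0.39, adjusted p = 1.81e-05). Its CAMA-1 call with abemaciclib was lost with DESeq2 (1.05, adjusted p = 0.123), with no low-count filter (1.06, adjusted p = 0.0743) and without CAMA-1 abemaciclib replicate 1 (0.89, adjusted p = 0.176), replicate 2 (1.04, adjusted p = 0.0815), CAMA-1 DMSO replicate 1 (0.88, adjusted p = 0.15) or replicate 3 (0.99, adjusted p = 0.12). DDIT3 fell in ZR-75-1, from 21.6 ± 4.09 CPM to 6.29 ± 2.08 and 5.18 ± 2.89 CPM (mean ± SD, n = 3; log2 fold change -1.79 ± 0.30, adjusted p = 2.05e-06, and -2.08 ± 0.30, adjusted p = 1.73e-07), and was at -0.71 ± 0.48 with abemaciclib and -1.004 ± 0.48 with palbociclib in CAMA-1, from few counts and not called.

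Chaperones of the cytosol gave a comparison outside the compartment. Of 17 tested, 7 rose and 3 fell with abemaciclib and 6 rose and 1 fell with palbociclib in ZR-75-1 (medians 0.055 and 0.12), and 5 rose and 6 fell, and 5 rose and 8 fell, in CAMA-1 (medians -0.12 and -0.23). Over all genes, 17.9% rose and 18.3% fell, and 14.5% and 13.4%, in ZR-75-1. For CAMA-1 these shares were 20.3% and 20.1%, and 18.4% and 18.7%. The 3 that fell with abemaciclib in ZR-75-1 were near the share of all genes. The 5 that rose with palbociclib in CAMA-1 were 3 without palbociclib replicate 3, and the 3 that fell with abemaciclib in ZR-75-1 were 1 without abemaciclib replicate 1. The 1 that fell with palbociclib there was 0 with DESeq2 and without DMSO replicates 1 or 3 or palbociclib replicates 2 or 3. HSP90AA1, the inducible cytosolic Hsp90, rose in ZR-75-1 (0.28 ± 0.064, adjusted p = 0.000412, and 0.38 ± 0.064, adjusted p = 5.24e-06) and fell in CAMA-1 (-0.23 ± 0.052, adjusted p = 0.000396, and -0.37 ± 0.052, adjusted p = 2.44e-07), with a difference between lines of 0.49 ± 0.082 and 0.72 ± 0.082 (largest adjusted p = 6.34e-06). HSPA4, a cytosolic exchange factor of the Hsp110 family, rose in all 4 (0.34 ± 0.063, 0.28 ± 0.063, 0.60 ± 0.077 and 0.48 ± 0.077; largest adjusted p = 0.000325). STIP1, which links Hsp70 to Hsp90, fell in all 4 (-0.47 ± 0.11, -0.52 ± 0.10, -0.50 ± 0.11 and -0.29 ± 0.11; largest adjusted p = 0.0325). Its palbociclib call in ZR-75-1 was lost with DESeq2 (-0.29, adjusted p = 0.133) and without ZR-75-1 DMSO replicate 1 (-0.30, adjusted p = 0.0727), replicate 3 (-0.27, adjusted p = 0.0927), ZR-75-1 palbociclib replicate 2 (-0.28, adjusted p = 0.0903) or replicate 3 (-0.16, adjusted p = 0.329). HSPA1A was called higher in all 4 (0.31 ± 0.064, 0.16 ± 0.064, 0.75 ± 0.081 and 0.46 ± 0.081; largest adjusted p = 0.0478), but its copy HSPA1B is nearly identical and reads may be split between them. The palbociclib call of HSPA1A in CAMA-1 was lost with DESeq2 (0.16, adjusted p = 0.0594), with the replicate number as a block (0.16, adjusted p = 0.0593) and without CAMA-1 DMSO replicate 1 (0.15, adjusted p = 0.13), replicate 3 (0.11, adjusted p = 0.156), CAMA-1 palbociclib replicate 1 (0.16, adjusted p = 0.114) or replicate 3 (0.14, adjusted p = 0.155).

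**Figure D4:**
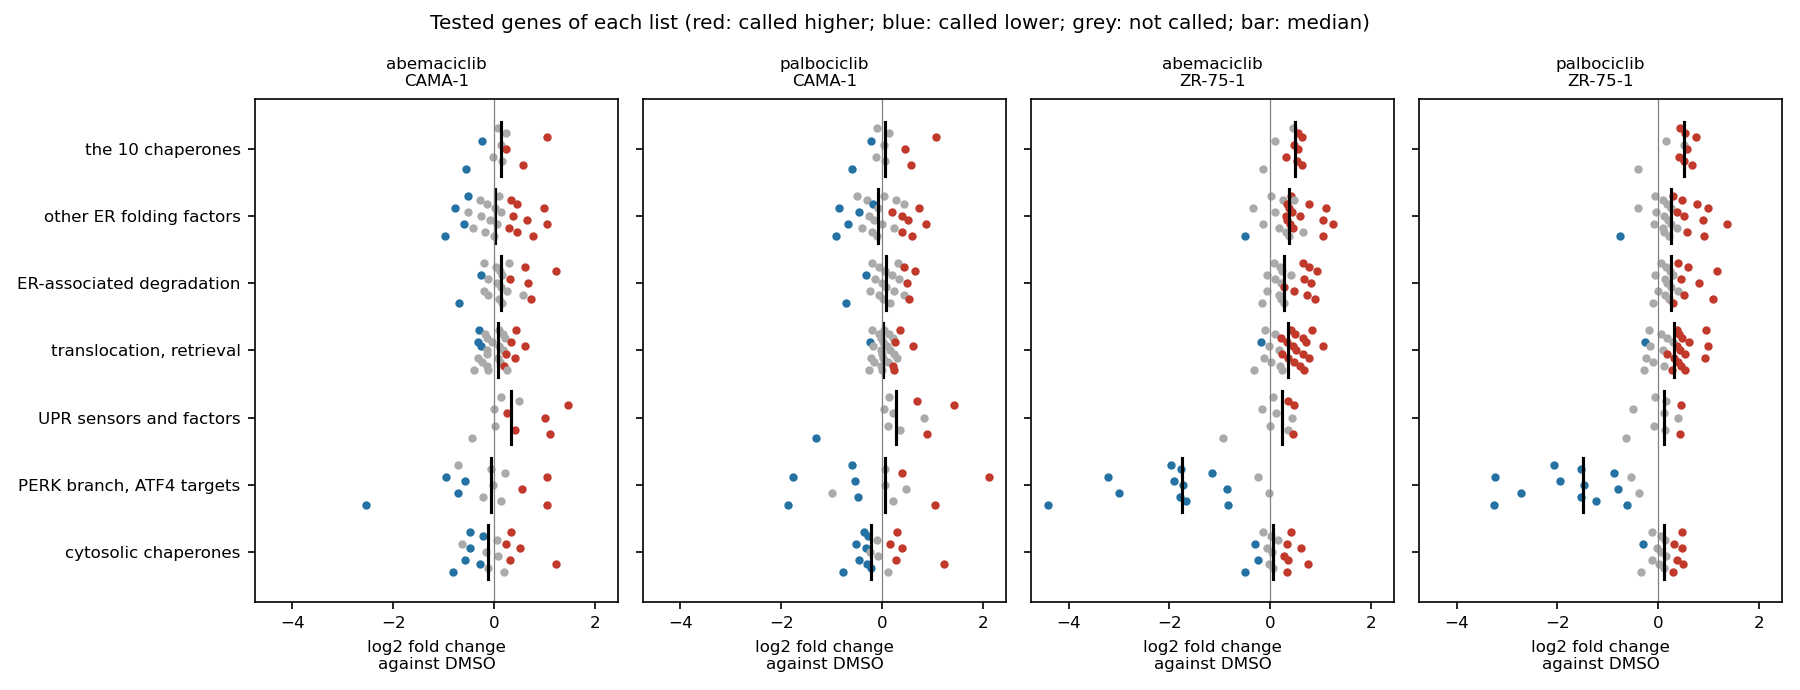
Log2 fold change against DMSO of every tested gene of the 10 chaperones and of 6 further lists, in the 4 comparisons with DMSO; red points were called higher, blue lower and grey not called, bars are medians and vertical scatter is for display. In ZR-75-1 the medians of the chaperones (0.50 and 0.51) and of the PERK branch and ATF4 target list (-1.76 and -1.50) lie on opposite sides of 0.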

How the data were processed

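RNA of CAMA-1 and ZR-75-1 cells was sequenced as 3′ tag libraries. The authors trimmed the reads, aligned them to hg38 with STAR 2.7.5b and counted them per GENCODE 35 gene with featureCounts 2.0.1, and the deposited values are these raw counts, not normalized. Per the labels and the study's methods, the strand, multimapper and UMI settings of the counting are not given in the sources used here, and reads of overlapping genes on opposite strands may not be separated. Each group held 3 libraries of independent cultures. Replicate pairs of a group correlated at 0.974 to 0.9815 (Pearson r of log2 CPM) and differed by more than sampling noise (chi-square per degree of freedom of 1.858 or more), so none was counted as a copy of another library's reads. These values cannot tell independent cultures from repeat libraries of 1 culture.

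Counts were tested with the quasi-likelihood F test of edgeR 4.0.16 in R 4.3.3, after filterByExpr and TMM scaling, on the 9 libraries of a line for comparisons within it and on all 18 for comparisons between lines. The p-values were adjusted by Benjamini-Hochberg over all genes tested, two-sided, with calls at an adjusted p under 0.05. The filter kept 11053 genes in CAMA-1, 11017 in ZR-75-1 and 11987 over both, with at least 99.48% of counts, and the common biological coefficient of variation was 8.12% to 8.30%. CPM came from the fit over 18 libraries. DESeq2 1.42.0, RLE and upper-quartile scaling, no filter, a filter of 20 counts in 3 libraries, 1 fit over all libraries, no mitochondrial genes, a replicate block and each library left out were the alternatives. The fits were tested on simulated data. Gene positions are those of GENCODE 44 (GRCh38).

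The 10 genes, the further gene lists, the promoter motifs and the tests were chosen with earlier results of these data known. The 10 genes are named in every comparison. Of each further list, at most 4 genes are named, those called in the most of the 4 comparisons with DMSO and, on ties, with the smallest adjusted p, besides XBP1, ATF4, DDIT3, ATF6, ERN1 and EIF2AK3. Of the genes that this rule or the marker lists name, 2 are not reported here. The 5 genes most like HSPA5 had the highest Pearson r of log2 CPM (prior count 2) among genes averaging 20 counts or more a library.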

Additional observations from a re-analysis of the deposited data

Results flagged for a closer look

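For 16 contrasts of the 10 genes, the test of the difference between the lines or between the drugs' line differences passed an adjusted p of 0.05 (edgeR). With abemaciclib the response of ZR-75-1 less that of CAMA-1, as a log2 difference, was 0.68 for PDIA6, 0.62 for SDF2L1, 0.54 for HYOU1, 0.52 for PDIA4, 0.46 for HSPA5, 0.41 for HSP90B1 and 0.29 for CALR. With palbociclib it was 1.10 for SDF2L1, 0.65 for HYOU1, 0.61 for PDIA6, 0.59 for HSPA5, 0.59 for PDIA4, 0.58 for CALR, 0.36 for HSP90B1 and -0.99 for HERPUD1. The abemaciclib minus palbociclib contrast differed between the lines for SDF2L1, by -0.48. The abemaciclib and palbociclib contrasts share the same DMSO libraries. The mitochondrial share was higher with both drugs than with DMSO in CAMA-1, without overlap, and overlapped in ZR-75-1, and all 16 values stayed called with the mitochondrial genes left out.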

How the results depend on the processing

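Of 100 values of the 10 genes, 95 to 100 kept direction and call under each other scaling, filter or tool, and 58 of 60 in 1 fit over all libraries. Leaving out 1 library kept 713 of 780, with 25 calls lost, 12 gained and 30 values near 0 changing sign. For the genes of the other lists, 843 of 912 values were kept when 1 library was left out. With 3 libraries a group, small changes of thinly counted genes such as DNAJB9 (21 to 108 counts a library) and ERN1 were at the limit of detection. The causes of the changes below were not tested.

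DESeq2 called 898 genes between the drugs in ZR-75-1 against 1451. Of the 10 genes, those lower in the line difference between the drugs numbered 0 with RLE scaling, the stricter filter and upper-quartile scaling, against 1. Those higher under DMSO numbered 0 with no filter and with the stricter one, against 1. Those lower with palbociclib numbered 1 in CAMA-1 with 1 fit over 18 libraries and with no filter, against 2, and 1 in ZR-75-1 with 1 fit over 18 libraries, RLE scaling, the stricter filter and upper-quartile scaling, against 0. In the translocation list the genes lower with abemaciclib numbered 1 in CAMA-1 with DESeq2 and with no filter, against 3, and 0 in ZR-75-1 with DESeq2, no filter, either other scaling, the block and every library left out, against 1. In the degradation list 1 was lower with abemaciclib in ZR-75-1 with no filter, against 0. Near 0, the line difference between the drugs for DNAJB9 was 0.0099 with DESeq2, 0.0082 with the stricter filter and 0.015 with upper-quartile scaling against -0.014, HYOU1 under DMSO was 0.020 with upper-quartile scaling against -0.020, and EIF2AK3 with abemaciclib in CAMA-1 was 0.028 in 1 fit over 18 libraries and 0.0094 with no filter against -0.0048.

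The libraries share replicate numbers across groups, but same-numbered libraries did not deviate together (correlations of their deviations from -0.056 to 0.041), so the numbers give no pairing. With the replicate number as a block, 99 of 100 values of the 10 genes kept direction and call and none of their calls changed. The line difference between the drugs for DNAJB9 was 0.025 and ERN1 with abemaciclib in ZR-75-1 -0.0043 with the block, against -0.014 and 0.0048.

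With 1 library left out, the following log2 values ranged across 0. With abemaciclib in CAMA-1 they were ATF6 -0.032 to 0.063, EIF2AK3 -0.34 to 0.19, HYOU1 -0.11 to 0.047 and PDIA4 -0.0023 to 0.16, and with palbociclib CREB3 -0.0083 to 0.092 and HSP90B1 -0.017 to 0.10. With abemaciclib in ZR-75-1 they were AUP1 -0.12 to 0.041 and ERN1 -0.17 to 0.15. Between the drugs they were, in CAMA-1, DNAJB9 -0.45 to 0.17, HSPA5 -0.041 to 0.077, HYOU1 -0.00013 to 0.16, PDIA6 -0.041 to 0.055 and SDF2L1 -0.077 to 0.13, in ZR-75-1, DNAJB9 -0.26 to 0.15, HYOU1 -0.095 to 0.030 and PDIA6 -0.029 to 0.13, and in the line difference between the drugs DNAJB9 -0.22 to 0.41, DNAJC3 -0.013 to 0.12, PDIA4 -0.10 to 0.0075 and PDIA6 -0.027 to 0.16. HYOU1 under DMSO was -0.15 to 0.035. Genes called between the drugs in CAMA-1 numbered 151 to 197 against 257. Of the 10 genes, 1 to 2 were lower with abemaciclib and 1 to 2 with palbociclib in CAMA-1, 0 to 1 lower with palbociclib in ZR-75-1, 0 to 1 lower in the abemaciclib line difference, 0 to 1 higher and 0 to 1 lower in the line difference between the drugs, and 0 to 1 higher under DMSO.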
